A study of Mus musculus with 2 samples.

Results

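The 8 genes described here are Notch1, Notch2, Rbpj, Dtx1, Hes1, Nrarp, Esam and Lfng, followed through the cells of mouse spleen with the weight on conventional type 2 dendritic cells (cDC2s). They were chosen by name as genes of the Notch pathway, with earlier results of these data known. All 8 were found among the 27032 genes of each count table. Cells were sorted into classes by unique molecular identifiers (UMIs), the tags that count each captured transcript once. The first matching rule of the following was taken: macrophages (at least 20 UMIs of Vcam1 and 5 of C1qb), mature DCs (at least 2 of Ccr7 and 1 of Fscn1), cDC1s (at least 2 of Clec9a and 1 of Xcr1), pDCs (at least 3 of Siglech and 1 of Ccr9), B cells (at least 3 of Cd79a), T cells (at least 2 of Cd3e) and NK cells (at least 1 of Ncr1). Of the remaining cells, those with at least 2 UMIs of Clec4a4, which encodes the lectin DCIR2, formed the DCIR2 cDC2s, and then those with at least 2 UMIs of Clec10a and Cd209a together formed the CLEC10A cDC2s.

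The samples were 2 libraries of Wild-Type mouse spleen, called replicates 1 and 2 here, whose CD11c+ cells had been enriched on magnetic beads and captured on the BD Rhapsody system. There was a single condition and no treatment. The study's methods state that its mice were adults of either sex on the C57BL/6J background, and the age and sex behind each library and its number of mice were not found in the sources used here. The comparisons below are therefore between cell classes within the same libraries, and the p-values measure the spread between these 2 libraries, which may be technical. After filtering, 2928 cells of replicate 1 (median 12220 UMIs) and 2725 cells of replicate 2 (median 11435 UMIs) remained of 6393 deposited cells, and 0 cell barcodes were shared. The DCIR2 cDC2s were 556 and 456 cells with 7234861 and 6003362 UMIs, and the CLEC10A cDC2s were 484 and 408 cells with 5461121 and 4679669 UMIs. A further 616 and 602 cells matched no rule.

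Notch receptors are cleaved when a ligand of the Delta or Jagged type on a neighbouring cell binds them, and the freed intracellular part enters the nucleus and turns the DNA-binding protein RBPJ from a repressor into an activator. In the spleen, signalling through NOTCH2 and RBPJ is known to be needed for the cDC2s that carry the adhesion molecule ESAM, which lie in the bridging channels of the marginal zone, and DCIR2 marks much the same cells. Dtx1, Hes1 and Nrarp are target genes used to read out the pathway in many cell types, and LFNG is a sugar transferase that changes which ligands a Notch receptor answers to.

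The markers that set cDC2s apart from cDC1s were present in both cDC2 classes. Of a list of 7 genes of cDC2s, some of which all conventional DCs share, 4 were higher than in cDC1s in each class by edgeR (Sirpa, Irf4, Itgam and Itgax). Flt3 (434 and 440 against 592 and 586 CPM in cDC1s) and H2-Ab1 (10062 and 9919 against 12622 and 13052 CPM) were lower in DCIR2 cDC2s, and Zbtb46 (209 and 180 against 234 and 229 CPM) in CLEC10A cDC2s. The summed list, most of it H2-Ab1, stood at 12153 and 11906 CPM in DCIR2 cDC2s, 14459 and 14481 CPM in CLEC10A cDC2s and 13955 and 14346 CPM in cDC1s. Sirpa stood at 310 and 281 CPM (UMIs per 1000000 UMIs of the class) in DCIR2 cDC2s and at 300 and 307 CPM in CLEC10A cDC2s, against 13.3 and 16.2 CPM in cDC1s. Irf4, a transcription factor of cDC2s, stood at 81.4 and 84.6 CPM in DCIR2 cDC2s and at 70.7 and 92.7 CPM in CLEC10A cDC2s, whereas the cDC1 genes Cd8a and Irf8 stood at 4.98 and 5.997 CPM and at 18.1 and 24.7 CPM in DCIR2 cDC2s. Cd8a was not as low in CLEC10A cDC2s, at 65.2 and 57.7 CPM, against 663 and 703 CPM in cDC1s.

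Of the 8 genes, 6 had a promoter window in the RefSeq table for GRCm38.p6. The 250 bases before each start were searched on both strands for TGGGAA, the core that RBPJ reads, and for its longer forms GTGGGAA and CGTGGGAA, each of which contains the shorter one. Over all 32851 windows of the same length, 21.59% held TGGGAA, 5.42% GTGGGAA and 0.636% CGTGGGAA. Lfng held TGGGAA at 2 places, of which 1 was the full CGTGGGAA, beginning 110 bases before the start, and the windows of Rbpj held TGGGAA only. The windows of Dtx1, Nrarp, Notch1 and Notch2 held none of these letters. A core read by ETS factors such as PU.1, GAGGAA, was also searched and is held by 23.25% of all windows. It was found in windows of Dtx1, Notch1 and Rbpj. The windows of Lfng (chr5:140607091-140607319, plus strand) and Nrarp (chr2:25180508-25180757, plus strand) are shown up to the first annotated exon, because they hold the longest match and no match among the target genes, with matches to the searched letters in capitals.
Lfng: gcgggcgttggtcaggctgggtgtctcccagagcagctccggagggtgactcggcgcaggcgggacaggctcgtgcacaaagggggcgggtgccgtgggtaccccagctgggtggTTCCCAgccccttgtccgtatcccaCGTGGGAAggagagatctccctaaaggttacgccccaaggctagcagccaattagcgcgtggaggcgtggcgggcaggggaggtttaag
Nrarp: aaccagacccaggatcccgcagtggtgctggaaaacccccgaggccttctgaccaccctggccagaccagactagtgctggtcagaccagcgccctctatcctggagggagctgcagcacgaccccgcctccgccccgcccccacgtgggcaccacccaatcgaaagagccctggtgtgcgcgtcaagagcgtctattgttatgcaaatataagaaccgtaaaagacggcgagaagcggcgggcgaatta
A match describes these letters only, and no binding was measured. The window of Dtx1 lies within an annotated first exon and is not shown.

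In GENCODE M21 on GRCm38, Dtx1 lies on chromosome 5 from 120680202 to 120711927 (minus strand), Esam on chromosome 9 from 37528078 to 37538319 (plus strand), Notch2 on chromosome 3 from 98013527 to 98150361 (plus strand) and Hes1 on chromosome 16 from 30064384 to 30067796 (plus strand). Dtx1, Hes1, Esam and Lfng overlap 0 other annotated genes. Notch1 overlaps 3, Notch2 and Rbpj overlap 2 each and Nrarp overlaps 1, the antisense gene Gm38287. The sources do not state whether counting used strand, and intronic reads were counted, so for these 4 genes reads of the partners could have been counted with them.

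The question put first was whether the readout of the pathway differs between the cDC2 types. Dtx1, which encodes a ubiquitin ligase that binds Notch, stood at 301 CPM in replicate 1 and 312 CPM in replicate 2 in DCIR2 cDC2s, and at 105 and 75.9 CPM in CLEC10A cDC2s. The DCIR2 cDC2s were higher in both libraries without overlap. The fitted difference was 1.70 ± 0.23 (log2, SE), or 3.25-fold, with an adjusted p of 8.97e-05 (edgeR's quasi-likelihood test over 11903 genes and 18 sums, 9 classes by 2 libraries). A UMI of Dtx1 was found in 71.4% (exact 95% interval 67.5 to 75.1) and 68.6% (64.2 to 72.9) of DCIR2 cDC2s, and in 28.3% and 25.5% of CLEC10A cDC2s. With each cell thinned to 5000 UMIs, the shares were 55.4% and 56.3% against 21.99% and 20.2%, and 1.20% and 2.49% in cDC1s, which hold little of this gene. NK cells, the class planned as background for Dtx1, held it in 9 of 30 and 11 of 28 cells. The height of background was therefore not measured independently for this gene. Here and below, intervals cover counting error only. The median depths were 12205 and 12094.5 UMIs in DCIR2 cDC2s, 10866.5 and 10579.5 in CLEC10A cDC2s, and 19520.5 and 20952.5 in cDC1s.

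Esam, the adhesion molecule that gives the Notch2-dependent cDC2s their name, followed the same order. Its level was 43.7 and 46.1 CPM in DCIR2 cDC2s and 14.6 and 15.8 CPM in CLEC10A cDC2s, a fitted difference of 1.5 ± 0.20 (log2, SE) or 2.83-fold (edgeR adjusted p = 9.81e-05). The classes did not overlap. At 5000 UMIs, 18.1% and 18.3% of DCIR2 cDC2s and 4.65% and 7.48% of CLEC10A cDC2s held a UMI, beside 1 of 33 and 0 of 131 T cells. Before thinning, the shares were 31.3% and 33.6% in DCIR2 cDC2s and 9.92% and 12.01% in CLEC10A cDC2s, beside 1 of 41 and 1 of 159 T cells.

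Notch1 went the other way at a low level. DCIR2 cDC2s held 14 and 13 UMIs of it, or 1.94 and 2.17 CPM, and CLEC10A cDC2s 63 and 45 UMIs, or 11.5 and 9.62 CPM. It was 5.32-fold lower in DCIR2 cDC2s, with a log2 difference of -2.41 ± 0.48 (SE; edgeR adjusted p = 0.00380). The thinned share of cells was 0.722% and 0.883% in DCIR2 cDC2s, 5.29% and 3.99% in CLEC10A cDC2s and 2.70% and 2.31% in cDC1s. Before thinning it was 1.80% and 1.97%, 8.26% and 8.33%, and 8.19% and 9.30%.

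These 3 of 8 genes passed the threshold of 0.05 between the cDC2 types, 2 higher and 1 lower in DCIR2 cDC2s, where 5.54% of all genes tested passed, 1.99% higher and 3.55% lower. The 8 were chosen with earlier results of these data known, so the shares are set side by side without a test. The 8 genes had a median log2 difference of -0.13, beside 0.00152 over all genes tested. The plot of fold changes sets 7 of them beside each other in all comparisons.

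**Figure D1:**
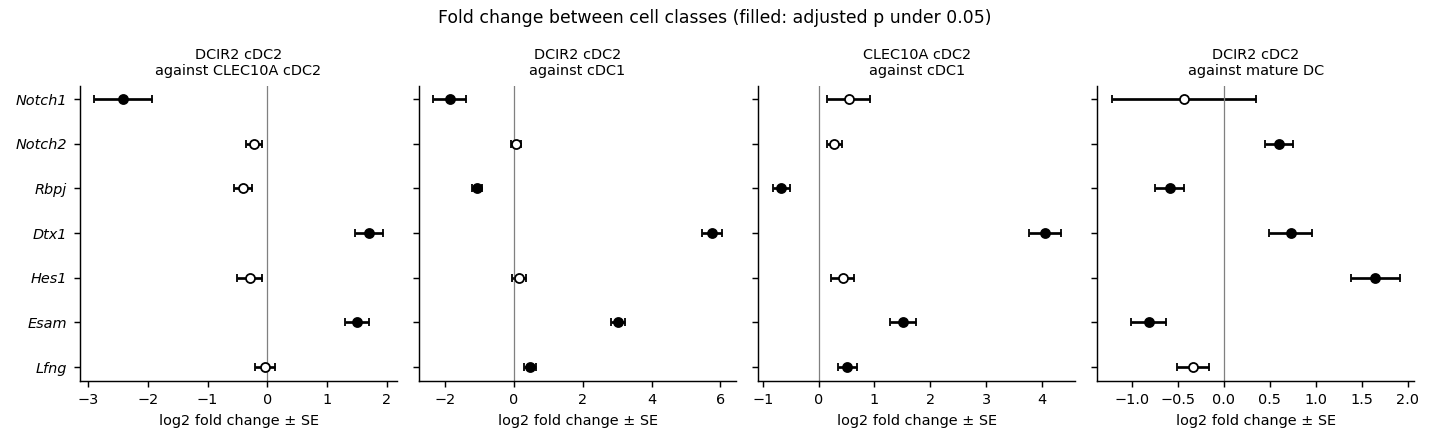
Log2 fold change ± SE (x axis) of 7 genes between pairs of cell classes, from the fit over 18 sums of UMIs of 2 libraries; filled points passed an adjusted p of 0.05. Dtx1 and Esam lay to the right and Notch1 to the left in DCIR2 against CLEC10A cDC2s, with Lfng at -0.04. Nrarp is left out, since its fitted values rest on classes with 0 to 3 UMIs.

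The receptor known to act in these cells and its nuclear partner differed less. Notch2 stood at 210 and 204 CPM in DCIR2 cDC2s and at 233 and 232 CPM in CLEC10A cDC2s, a log2 difference of -0.22 ± 0.14 (SE; edgeR adjusted p = 0.493). Rbpj stood at 181 and 194 CPM against 255 and 223 CPM. Its log2 difference was -0.41 ± 0.15 (SE), with an adjusted p of 0.154, and 0.0425 with the library as a block, 1 of 7 alternatives out of 15 that take it past the threshold. For both genes the classes did not overlap, with the lower values in DCIR2 cDC2s.

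Hes1, a transcriptional repressor and classical Notch target, stood at 98.1 and 94.3 CPM in DCIR2 cDC2s and at 117 and 109 CPM in CLEC10A cDC2s. The log2 difference was -0.29 ± 0.21 (SE; edgeR adjusted p = 0.588), opposite in sign to that of Dtx1. Lfng stood at 186 and 184 CPM against 186 and 179 CPM, and its difference of -0.04 ± 0.17 (adjusted p = 0.964) was the smallest in size of the 8. Its libraries overlapped between the classes.

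Nrarp, which encodes a small protein that turns Notch signalling down, was at the edge of detection. DCIR2 cDC2s held 3 UMIs of it in replicate 1 and 10 in replicate 2 (0.415 and 1.67 CPM), and CLEC10A cDC2s held 0 in both. Against a floor of 3 counts over both CLEC10A sums, this is at least 3.32-fold higher, and the difference did not pass (edgeR adjusted p = 0.0883). The limit rests on replicate 2, since in replicate 1 alone the 0.415 CPM lay below the floor of CLEC10A cDC2s (0.549 CPM). The 13 UMIs lay in 10 cells, and all 10 also held a UMI of Mki67 or Top2a, genes of dividing cells, which 42.1% of DCIR2 cDC2s did in each library and 24.4% and 26.7% of CLEC10A cDC2s. In NK cells, where Nrarp stood at 31.8 and 44.1 CPM, 1 of 7 and 4 of 10 cells with a UMI of Nrarp held one of Mki67 or Top2a. The few cells with Nrarp in other classes were split. In cDC1s 1 of 1 and 2 of 2 held one of Mki67 or Top2a, and the same in macrophages. In unclassified cells 1 of 1 and 9 of 11 did, so this was not particular to DCIR2 cDC2s. It was 0 of 2 and 1 of 5 in T cells, 0 of 1 in B cells of each library and 0 of 1 in pDCs of replicate 2.

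**Figure D2:**
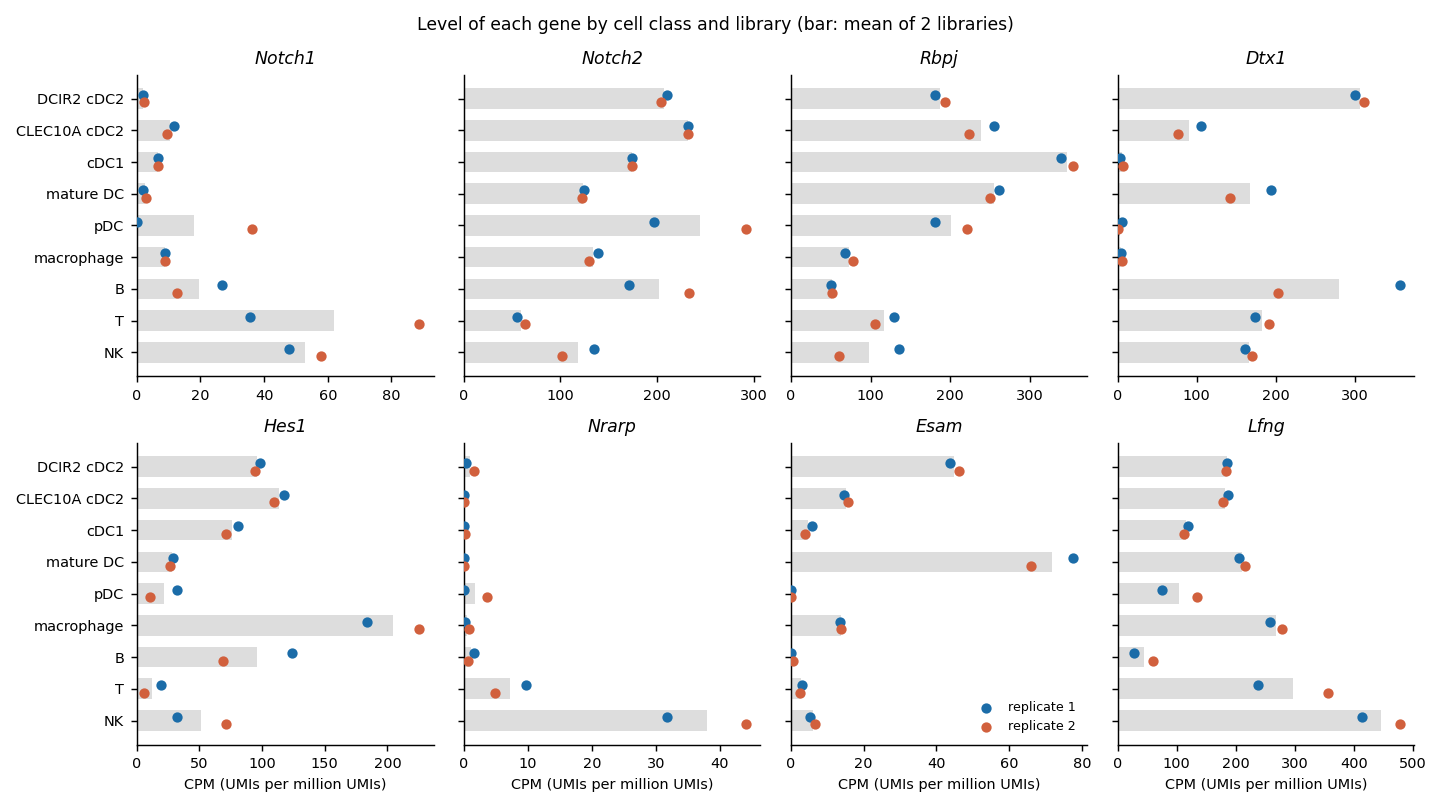
Level of each of the 8 genes (x axis, CPM, scale differs by panel) in 9 cell classes of mouse spleen; points are the 2 libraries and bars their mean. Dtx1 stood at 301 and 312 CPM in DCIR2 cDC2s and at 3.54 and 6.43 CPM in cDC1s, whereas Notch2 stood between 102 and 293 CPM in the 8 classes other than T cells.

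Cell division and other markers differed between the cDC2 types as well. The summed level of 7 cell cycle genes was 864 and 1329 CPM in DCIR2 cDC2s and 395 and 390 CPM in CLEC10A cDC2s, and 4 of the 7 were called higher by edgeR and 0 by DESeq2. The summed level of 9 monocyte genes was 761 and 754 CPM against 2300 and 2932 CPM, with 6 of 8 tested called lower, and that of 10 macrophage genes 219 and 227 against 301 and 398 CPM, with 6 of 10 called lower and 3 by DESeq2. B cell genes summed to 424 and 397 against 345 and 308 CPM, and 1 of 8 was called by edgeR and 0 by DESeq2. Of the genes of cDC1s 4 of 9, of pDCs 2 of 7 and of NK cells 1 of 7 were called lower in DCIR2 cDC2s. Of 7 genes of mature DCs, 7 shared by cDC2s, 4 of erythroid cells and 2 of neutrophils, edgeR and DESeq2 called 0, and 1, 0, 0 and 0 had an unadjusted p under 0.05. T cell genes summed to 27.6 and 29.2 against 24.5 and 20.7 CPM, with 0 of 7 called by either tool or at an unadjusted p under 0.05. The part of the monocyte, macrophage, cDC1, pDC and B cell genes in the results was not tested. Without cells that held a UMI of Mki67 or Top2a, and without cells that held a UMI of Cd79a, Cd3e or Ncr1, Dtx1, Esam and Notch1 were called in the same directions.

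The other genes were found in DCIR2 cDC2s with and without UMIs of these division genes. Cells with 0 UMIs of Mki67 and Top2a held Dtx1 at 317 and 308 CPM, and those with 10 or more at 268 and 274 CPM. Notch2 stood at 207 and 211 CPM in the former and at 195 and 192 CPM in the latter. Rbpj stood at 195 and 203 CPM against 163 and 141 CPM, so it was lower in the cells with most of these UMIs. Esam stood at 41.3 and 51.5 CPM against 43.8 and 26.6 CPM, lower in replicate 2 only. Notch1 stood at 1.56 and 0.652 CPM against 4.98 and 3.44 CPM, on 6 and 2 UMIs against 5 and 4. The cells with 10 or more were 48 and 58, with a median depth of 19673 and 19105.5 UMIs.

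The levels also varied with the UMIs of the genes that define the cDC2 classes, in the cells that no earlier rule had taken. These include the cells that matched no rule, which were not placed among the cDC2s. Along Clec4a4, Dtx1 stood at 128 and 123 CPM in cells with 0 UMIs, at 287 and 265 CPM with 1 UMI, at 288 and 292 CPM with 2 to 4 UMIs and at 331 and 430 CPM with 5 to 9 UMIs. Esam went from 20.1 and 18.9 CPM through 35.3 and 39.2 CPM and 43.0 and 43.9 CPM to 47.7 and 59.4 CPM. Notch1 stood at 10.8 and 10.9 CPM at 0 UMIs and at 3.46 and 2.02 CPM at 1 UMI. A single UMI of Clec4a4, just outside the rule, therefore went with levels near those just inside it, since cells with exactly 2 UMIs held Dtx1 at 310 and 303 CPM and Esam at 39.8 and 41.7 CPM.

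Along the sum of Clec10a and Cd209a, Dtx1 was lowest in the cells with the most UMIs. It stood at 312 and 303 CPM at 0 UMIs, 224 and 269 CPM at 1 UMI, 231 and 178 CPM at 2 to 4, 131 and 103 CPM at 5 to 9 and 63.9 and 34.1 CPM at 10 or more. Esam stood at 42.5 and 42.4 CPM at 0 UMIs and at 17.5 and 9.39 CPM at 10 or more, and Rbpj at 178 and 179 CPM and at 279 and 230 CPM. The bins at 0 and at 10 or more held 802 and 742 and 244 and 191 cells, with median depths of 10139.5 and 10243 UMIs and 11700.5 and 11498 UMIs. These bins describe the order of the cells and carry no test.

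**Figure D3:**
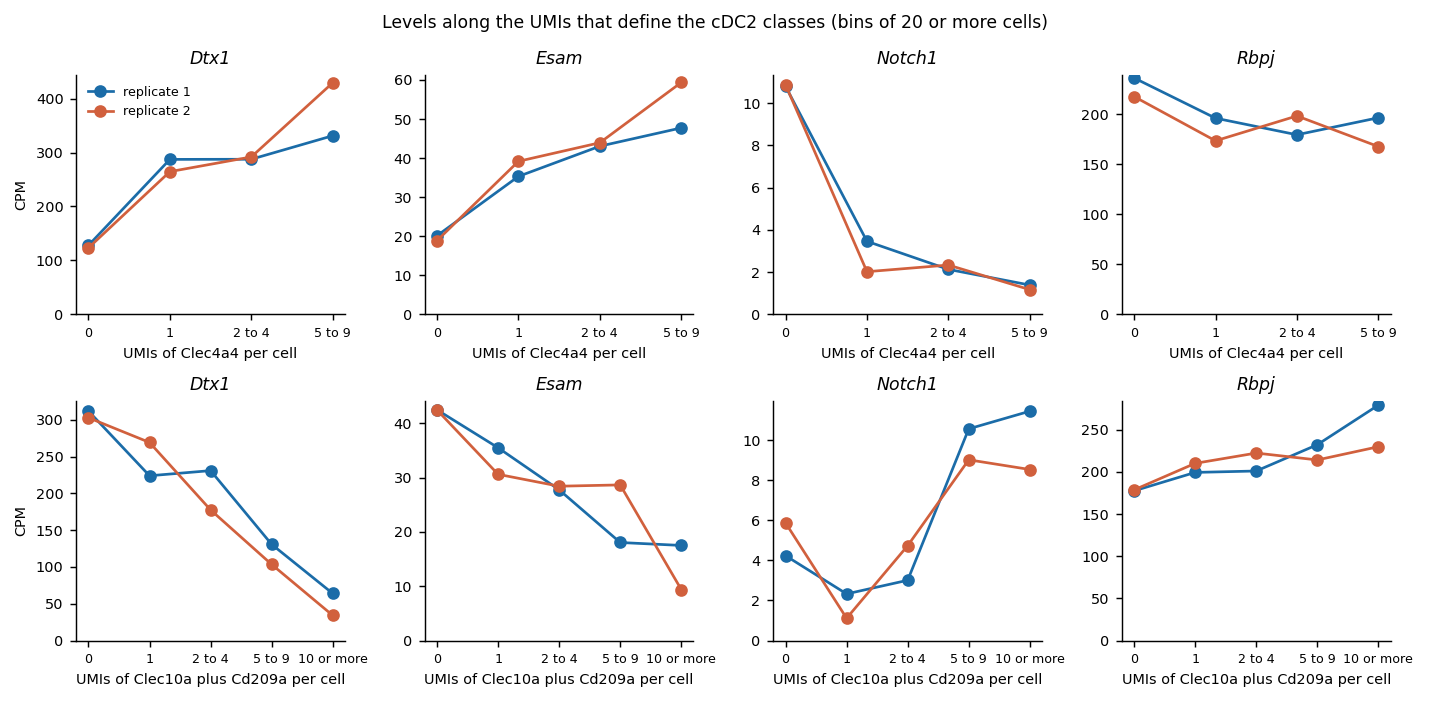
Level (y axis, CPM) of Dtx1, Esam, Notch1 and Rbpj by UMIs per cell of Clec4a4 (top) and of Clec10a plus Cd209a (bottom) in cells that none of the earlier rules had taken; points are the 2 libraries, bins under 20 cells are left out. Dtx1 went from 128 and 123 CPM up to 331 and 430 CPM along Clec4a4 and from 312 and 303 CPM down to 63.9 and 34.1 CPM along Clec10a plus Cd209a.

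Cells that met both cDC2 conditions were counted as DCIR2 cDC2s and lay between the types. These 209 and 156 cells held Dtx1 at 218 and 177 CPM, against 353 and 383 CPM in the 347 and 300 cells that met the Clec4a4 condition only. Esam stood at 34.6 and 35.5 CPM in the former and at 49.3 and 51.8 CPM in the latter. Notch1 was as low in cells that met both conditions (1.44 and 1.92 CPM) as in those with Clec4a4 only (2.24 and 2.30 CPM). The cells that met neither held Dtx1 at 256 and 241 CPM and Esam at 35.3 and 32.9 CPM. In these 2 genes they were nearer to the DCIR2 cDC2s than to the CLEC10A cDC2s. Their 9 monocyte genes summed to 2287 and 3306 CPM, nearer to the CLEC10A cDC2s (2300 and 2932 CPM). Their 7 cell cycle genes summed to 834 and 927 CPM, nearer to the DCIR2 cDC2s (864 and 1329 CPM). They matched no rule, so they were not placed among the cDC2s.

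Detection of Dtx1 together with other genes was counted in single cells. At 5000 UMIs, Dtx1 and Esam were found together in 64 of 554 and 57 of 453 DCIR2 cDC2s, 1.15 and 1.22 times the product of their shares. Dtx1 and Notch2 were found together 1.04 and 0.963 times as often as that product, and Dtx1 and Hes1 1.03 and 0.974 times. In CLEC10A cDC2s, Dtx1 and Esam were found together in 8 of 473 and 16 of 401 cells, 1.65 and 2.64 times the product. Dtx1 and Hes1 were found together there 1.16 and 1.17 times as often as the product. Dtx1 and Notch1 were found together there in 0 cells of either library, where the product gives 5.50 and 3.23 cells. In DCIR2 cDC2s these 2 genes were found together in 0 and 2 cells, where the product gives 2.22 and 2.25, so the absence was not repeated in replicate 2. All these cells were thinned to the same depth, the counts are sparse, and no test was run on these ratios.

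Against cDC1s, the other conventional dendritic cells of the spleen, both cDC2 types were higher in Dtx1, Esam and Lfng. Dtx1 stood at 3.54 and 6.43 CPM in cDC1s, 5.75 ± 0.29 (log2, SE) below the DCIR2 cDC2s and 4.05 ± 0.28 below the CLEC10A cDC2s (edgeR adjusted p = 1.45e-11 and 1.08e-09). Esam stood at 5.73 and 3.89 CPM in cDC1s, and the log2 differences were 3.01 ± 0.21 and 1.51 ± 0.23 (adjusted p = 1.02e-09 and 3.28e-05). The CLEC10A cDC2s, the lower of the cDC2 types, were thus also above cDC1s in both genes. Lfng stood at 120 and 113 CPM in cDC1s, with differences of 0.48 ± 0.17 and 0.51 ± 0.17 (adjusted p = 0.0361 and 0.0280). Neither Lfng call held in the fit without cells that held Mki67 or Top2a (adjusted p = 0.0749 and 0.0773), and that of DCIR2 cDC2s was also lost with any 1 marker condition, with at least 5 UMIs for a cDC2 condition and without called doublets (0.0509, 0.108 and 0.0550).

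Rbpj was higher in cDC1s. It stood there at 339 and 354 CPM, and the DCIR2 cDC2s were lower by a log2 difference of -1.08 ± 0.15 (SE; edgeR adjusted p = 1.28e-05) and the CLEC10A cDC2s by -0.67 ± 0.15 (adjusted p = 0.00199). Notch1 stood at 6.56 and 6.69 CPM in cDC1s, above the DCIR2 cDC2s (-1.87 ± 0.47, adjusted p = 0.00380), while the CLEC10A cDC2s did not pass (0.54 ± 0.39, adjusted p = 0.333). Notch2 stood at 174 and 174 CPM in cDC1s and passed in neither comparison (0.06 ± 0.14 and 0.28 ± 0.14, adjusted p = 0.788 and 0.142), although the CLEC10A cDC2s passed by DESeq2 (0.00240) and in a fit of only the classes compared (0.00530). Hes1, at 81.2 and 71.3 CPM in cDC1s, did not pass either (0.14 ± 0.21 and 0.43 ± 0.21, adjusted p = 0.646 and 0.130), except that the CLEC10A cDC2s passed with the library as a block (adjusted p = 0.0418), with all deposited cells (0.0369) and in the fit of only the classes compared (0.00397).

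Nrarp had 3 UMIs in cDC1s over both libraries and 13 in DCIR2 cDC2s, a ratio of 8.21 with an exact interval of 2.26 to 44.9. It was called at an adjusted p of 0.0419 by edgeR, a call lost with the library as a block (0.0506) and in 8 of 14 alternatives in all. Without cells that held a UMI of Mki67 or Top2a, no UMI of Nrarp was left in either class. Of the 8 genes, 6 passed in DCIR2 cDC2s against cDC1s, where 34.2% of all genes did (17.2% higher and 17.0% lower), and 4 in CLEC10A cDC2s against cDC1s, where 29.2% did (15.0% higher and 14.2% lower). Both comparisons use the same cDC1 sums, and the comparison of the cDC2 types is the difference between them.

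Mature DCs, the CCR7+ cells that have begun to leave for the T cell zone, were set against DCIR2 cDC2s, which are also in the comparisons above. Hes1 differed most, at 29.0 and 26.5 CPM in mature DCs, 1.65 ± 0.27 (log2, SE) below the DCIR2 cDC2s (edgeR adjusted p = 0.000101). Notch2 stood at 124 and 122 CPM and was 0.60 ± 0.15 lower in mature DCs (adjusted p = 0.00494). Dtx1 stood at 194 and 142 CPM, 0.73 ± 0.23 lower (adjusted p = 0.0241), a call that DESeq2 did not make (adjusted p = 0.122).

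Esam and Rbpj were higher in mature DCs. Esam stood at 77.6 and 66.0 CPM there, so the difference was -0.82 ± 0.19 (log2, SE; edgeR adjusted p = 0.00324), and Rbpj at 260 and 249 CPM (-0.59 ± 0.16, adjusted p = 0.00937). Where any 1 of the marker conditions made a class, the calls of Esam (0.12, adjusted p = 0.828), Rbpj (adjusted p = 0.662) and Notch2 (adjusted p = 0.320) were lost. The Rbpj call was also lost with no filter on low counts (0.0502) and that of Esam with at least 5 UMIs for a cDC2 condition (0.0532). Dtx1 and Esam, which shared their direction between the cDC2 types, had opposite directions here. Of the 8 genes, 5 passed, where 26.2% of all genes did (11.6% higher and 14.6% lower in DCIR2 cDC2s). The mature DC rule takes cells of either conventional type, and how many came from each was not counted.

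Over all classes, the order of levels set each gene apart. Dtx1 was highest on average in DCIR2 cDC2s, whose range overlapped that of B cells (358 and 203 CPM), and was followed by T cells (174 and 191 CPM), mature DCs, and NK cells (162 and 170 CPM), whose ranges overlapped in turn. Below the CLEC10A cDC2s, cDC1s, macrophages (4.16 and 4.89 CPM) and pDCs (5.33 and 0 CPM) overlapped. The pDCs were only 13 and 19 cells, so that their values rest on few counts. Among dendritic cells, Dtx1 thus stood at 75.9 CPM or more in cDC2s and mature DCs and at 6.43 CPM or less in cDC1s and pDCs.

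Esam was highest in mature DCs, then in DCIR2 cDC2s, CLEC10A cDC2s and macrophages (13.6 and 13.9 CPM), none of which overlapped with the next. Notch1 was highest in T cells (35.4 and 88.8 CPM) and NK cells (47.7 and 57.7 CPM), and the DCIR2 cDC2s and mature DCs, which overlapped, were lowest. Hes1 was highest in macrophages (184 and 226 CPM) without overlap with the CLEC10A cDC2s. Lfng was highest in NK cells (414 and 479 CPM) and lowest in B cells (28.3 and 59.7 CPM), and the cDC2 types were neighbours in its order. Rbpj was highest in cDC1s and lowest in B cells (50.2 and 52.3 CPM). In bulk sums of this kind, fewer expressing cells and fewer transcripts per cell cannot be told apart by CPM alone.

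The genes whose levels over the 18 sums most resembled Dtx1 were Rfwd3 (Pearson's r = 0.928 of log2(CPM + 10)), Zfp120 (0.898) and E2f2 (0.892), out of 5792 compared. For Esam they were Ryr3 (0.935), Bcl2a1b (0.919) and Ddhd1 (0.894), for Notch2 Rufy1 (0.925), Rubcnl (0.923) and Plekhm3 (0.916), and for Hes1 Atp6v0d1 (0.816), Pdxdc1 (0.809) and Trappc2l (0.801). Ryr3, a calcium channel of internal stores, stood at 97.3 and 73.3 CPM in DCIR2 cDC2s, 15.4 and 26.3 CPM in CLEC10A cDC2s and 272 and 223 CPM in mature DCs, the order of Esam. The genes named for Dtx1 differed less than it between the cDC2 types. In DCIR2 against CLEC10A cDC2s, Rfwd3 stood at 56.3 and 59.8 against 47.1 and 45.9 CPM. Zfp120 stood at 54.2 and 57.1 against 53.8 and 49.8 CPM, and E2f2 at 61.2 and 65.6 against 53.5 and 54.9 CPM. The 18 sums share 2 libraries, so these values describe likeness and carry no test.

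The rest of the pathway was read from 60 further genes in 7 lists, of which 49 were tested. Between the cDC2 types 1 was higher and 1 lower in DCIR2 cDC2s, beside 1.99% and 3.55% of all genes tested. For these further genes the counts were thus near the background. The higher one was Jag1, a Notch ligand, at 26.4 and 16.5 CPM against 10.3 and 10.3 CPM (1.01 ± 0.29, log2, SE; edgeR adjusted p = 0.0473). The lower one was Dtx4, another ligase of the Deltex family, at 3.87 and 3.998 CPM against 8.79 and 11.5 CPM (-1.41 ± 0.34, adjusted p = 0.0165). Of 15 alternatives, 8 kept the Jag1 call and 11 that of Dtx4, with adjusted p from 0.0170 to 0.869 and from 0.00458 to 0.293. By edgeR 0 genes passed among the 9 tested genes of Notch cleavage, the 4 of sugar transfer, the 19 nuclear partners of RBPJ or the 3 further targets, with list medians of -0.18, -0.05, -0.06 and -0.58 (log2). At an unadjusted p under 0.05 these counts were 3, 0, 3 and 2, and DESeq2 called 0, 0, 1 and 0.

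Ligands and receptors were split over the dendritic cells. Jag1 stood at 74.4 and 71.5 CPM in mature DCs, above the DCIR2 cDC2s (adjusted p = 2.39e-05), and at 0.603 and 0.762 CPM in cDC1s, below them (adjusted p = 4.24e-09). Jag2 was the leading ligand of cDC1s (8.51 and 11.7 CPM) and Dll1 that of NK cells (18.6 and 13.6 CPM). The NK values rest on few counts, since 3 counts there are 7.95 and 10.2 CPM. Notch4 stood at 79.4 and 86.6 CPM in cDC1s and at 5.67 and 4.83 CPM in DCIR2 cDC2s (-4.16 ± 0.28, log2, SE; edgeR adjusted p = 6.74e-10), with 6.04 and 4.91 CPM in CLEC10A cDC2s. The receptors thus had different classes at their top, with Notch4 in cDC1s and Notch1 in T and NK cells, whose ranges overlapped.

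Against cDC1s, 7 of the 49 genes were higher and 9 lower in DCIR2 cDC2s, and 6 were higher and 8 lower in CLEC10A cDC2s. Of all genes tested, 17.2% were higher and 17.0% lower in the former comparison and 15.0% and 14.2% in the latter, so these counts were near the background. Poglut1, which adds glucose to Notch receptors, stood at 21.01 and 16.2 CPM in DCIR2 cDC2s, 23.4 and 25.4 CPM in CLEC10A cDC2s, 54.3 and 50.9 CPM in cDC1s and 192 and 187 CPM in mature DCs, and passed in each comparison except that of the cDC2 types. Neurl3, a ubiquitin ligase of the Neuralized family, stood at 307 and 313 CPM in DCIR2 cDC2s, 290 and 327 CPM in CLEC10A cDC2s and 98.6 and 92.7 CPM in cDC1s (adjusted p = 2.36e-06 for DCIR2 cDC2s against cDC1s). Maml2 and Maml3, coactivators of the RBPJ complex singled out after their values were seen, had opposite directions. Maml3 stood at 74.5 and 65.5 CPM in DCIR2 cDC2s and at 15.1 and 13.8 CPM in cDC1s, and Maml2 at 17.3 and 19.0 CPM and at 66.0 and 57.6 CPM. Of the other classical targets, Myc led in B cells (166 and 156 CPM), and Hes6 in pDCs (37.3 and 25.3 CPM, where 3 counts are 16.0 and 10.8 CPM).

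**Figure D4:**
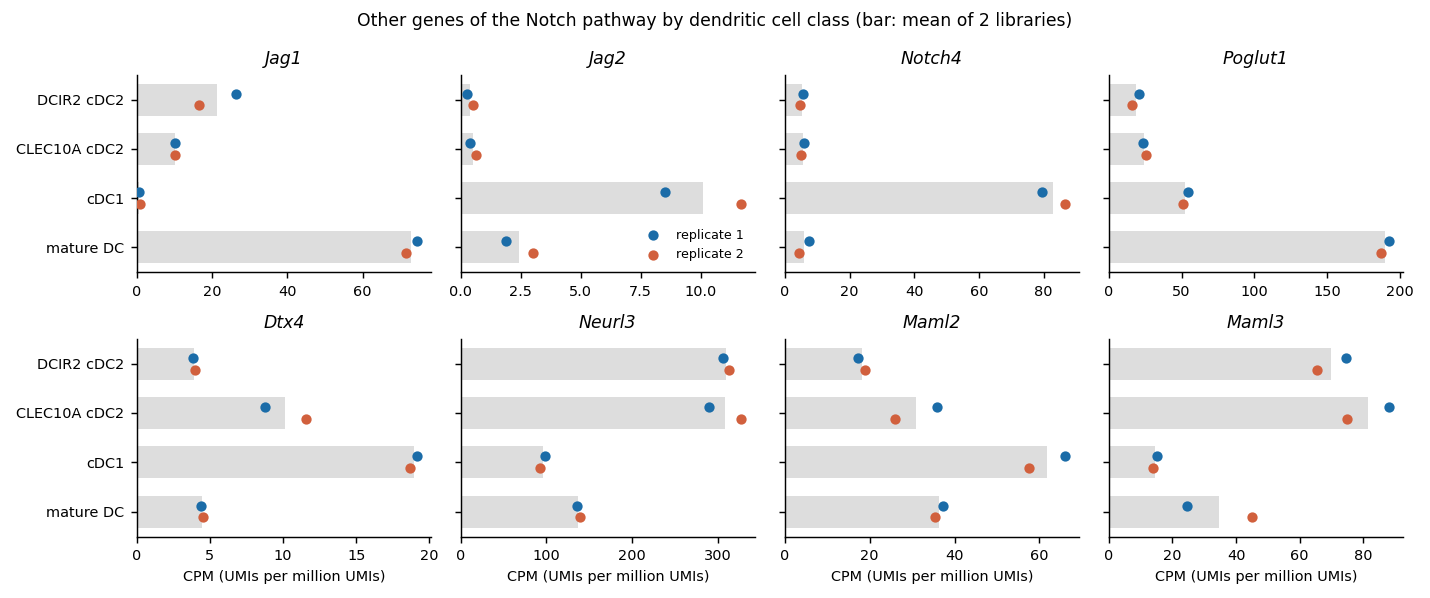
Level (x axis, CPM, scale differs by panel) of 8 other genes of the Notch pathway in 4 dendritic cell classes; points are the 2 libraries and bars their mean. Notch4 and Jag2 were highest in cDC1s, Jag1 and Poglut1 in mature DCs, and Maml3 stood at 74.5 and 65.5 CPM in DCIR2 cDC2s against 15.1 and 13.8 CPM in cDC1s.

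Genes known from the ESAM types of cDC2s completed the account. Of 7 genes linked to cDC2s with high ESAM, 0 passed between the cDC2 types by edgeR or DESeq2, and 2 had an unadjusted p under 0.05, with a median log2 difference of 0.11. Cd4, among the 7, stood at 243 and 262 CPM in DCIR2 cDC2s and at 218 and 232 CPM in CLEC10A cDC2s. Nearest to the threshold were Relb, at 342 and 350 CPM and 222 and 173 CPM (edgeR adjusted p = 0.0523), and Tbx21. The latter stood at 22.8 and 27.5 CPM and 8.61 and 11.1 CPM (adjusted p = 0.0576). Of 8 genes linked to cDC2s with low ESAM, 7 were tested and all 7 were lower in DCIR2 cDC2s, with a median of -2.65 (6 of 7 by DESeq2), where 3.55% of all genes were lower. Examples are Ccr2 (19.1 and 10.3 CPM against 303 and 314 CPM), Cx3cr1 (31.7 and 22.5 CPM against 157 and 172 CPM) and Csf1r (88.9 and 90.8 CPM against 284 and 322 CPM). Mgl2, a lectin next to Clec10a in the genome, is one of these genes, so the list is not independent of the rule that made the CLEC10A class.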

How the data were processed

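The deposited tables come from version 1.12.1 of the BD Rhapsody WTA Analysis Pipeline, run by the authors on GRCm38 with PhiX and GENCODE vM19, counting intronic reads and correcting UMIs by recursive substitution error correction. Each deposited value is a UMI count per gene and cell, without normalization. The sample tags of the run also name mice that are not analysed here. R 4.2.3 and Seurat 4.3.0.1 are in the submitters' processing notes.

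Cells with at least 200 genes were kept if their percentage of mitochondrial UMIs, genes and UMIs each lay within 3 scaled median absolute deviations of the mean of their library. Doublets were not removed. Scrublet in scanpy 1.11.5 called 35 and 27 cells, 0.970% of all. UMIs were summed per class and library and tested with edgeR 4.0.16 (quasi-likelihood test after TMM scaling and filterByExpr, 9 residual degrees of freedom), with p-values adjusted by Benjamini-Hochberg over every gene tested and without the genes of the class rules. Standard errors were taken as log2 fold change over √F. DESeq2 1.42.0 was an alternative. CPM are counts per 1000000 UMIs of a class. The libraries held 46953398 and 43137746 UMIs in all. All classes come from the same 2 libraries, so replicate numbers pair them. The libraries' deviations correlated between classes at 0.201 to 0.368 over 4034 genes, and the library was also fitted as a block. The 2 libraries differed by more than sampling noise (chi-square per degree of freedom 3.74 in DCIR2 cDC2s). The fit was tested on simulated sums for DCIR2 against CLEC10A cDC2s. Of 200 genes changed 2-fold, 133 were recovered, with 7 false calls. Of 200 changed 4-fold, 175 were recovered, with 6 false calls. A true 2-fold difference can therefore be missed.

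The 8 genes, the class rules and the pathway and marker lists were chosen with earlier results of these data known. Other pathway genes are named where they passed between the cDC2 types or led their list in a class, and others where the text says so. Alternatives covered the cell filter, class rules, doublets, lymphocyte UMIs, cycling cells, depth, scaling, the filter on low counts, the classes in the fit and each library alone. Those without cells holding Ccr7 or Fscn1 UMIs, and without the pDC and NK classes, were chosen after seeing the data. Figures were drawn with matplotlib 3.10.9.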

Additional observations from a re-analysis of the deposited data

How the results depend on the processing

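Most calls of the 8 genes held. Dtx1, Esam and Notch1 were called between the cDC2 types in each of 15 alternatives with a test, with the same directions. The number of genes called there was 660, and became 144 where any 1 of the marker conditions made a class, 1011 without cells that met both cDC2 conditions, 372 without cycling cells and 1773 in a fit of only the classes compared. The number of the 8 genes called there was 3, and became 5 both without cells that met both conditions, where Rbpj (-0.56, adjusted p = 0.0345) and Nrarp (adjusted p = 0.0357) were added, and in the fit of only the classes compared, where Rbpj (adjusted p = 0.00753) and Hes1 (adjusted p = 0.0490) were added. Any 1 of the marker conditions changed the genes called in CLEC10A cDC2s against cDC1s from 3473 to 2167, and in DCIR2 cDC2s against mature DCs from 3113 to 1219, with 3 in place of 5 of the 8 genes. The cause was not tested.

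Among the alternatives with a test, the direction turned in 6 cases. Against cDC1s, these were Notch2 in DCIR2 cDC2s (-0.061 with cDC2 conditions of at least 5 UMIs) and Notch1 in CLEC10A cDC2s (-0.19 with any 1 condition). Against mature DCs, they were Notch1 (0.57 without lymphocyte UMIs and 0.23 thinned to 5000 UMIs), Esam (0.12) and Lfng (0.00765), both with any 1 condition. Of these, only Esam had passed. With 1 library alone, the sign also turned for some genes that had not passed. These were Lfng between the cDC2 types (0.0146 without replicate 1) and Notch2 in DCIR2 cDC2s against cDC1s (-0.0121 without replicate 1). Notch1 in DCIR2 cDC2s against mature DCs also turned (0.0584 without replicate 2).

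With the replicate block, 880 genes were called between the cDC2 types, and the pairing of classes by library gave a call of Rbpj (adjusted p = 0.0425) and of Hes1 in CLEC10A cDC2s against cDC1s (0.0418), lost that of Nrarp against cDC1s (0.0506) and changed no other call of the 8 genes. With 1 library left there is no test, so no count was made without replicate 1 or 2. The fold change of Dtx1 between the cDC2 types then ranged from 1.496 to 2.002 and that of Notch1 from -2.30 to -1.90. Depth limits Nrarp, with 13 UMIs in DCIR2 cDC2s.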
